A study of Mus musculus with 2 samples.

Results

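Genes for the factors that start and extend protein synthesis were followed through a list of Usp16 binding sites. They were all protein-coding genes of the RefSeq annotation of GRCm38 whose symbol begins with Eif and a digit, with Eef1 or with Eef2, together with Denr. This gave 72 genes of 21887 protein-coding genes, spread over 21 chromosomes. The list of binding sites came from chromatin immunoprecipitation with sequencing (ChIP-seq), in which DNA bound to a protein is recovered with an antibody and sequenced. The antibody was against Usp16, an enzyme that removes ubiquitin from histone H2A. The cells were mouse bone marrow cells bearing c-Kit and Sca-1, surface proteins by which stem and progenitor cells of the blood are enriched. The other library was prepared with IgG, an antibody without a specific target. Both libraries came from mice with the genotype Mx1 Cre:Usp16loxp/loxp, in which the Cre recombinase is under the interferon-responsive Mx1 promoter. Induction of the recombinase is not mentioned in the labels, nor is the number, sex or age of the mice. Whether the cells still held Usp16 is therefore not known from the labels.

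The files hold 5079 peaks, each with a position and the peak caller's score, for the anti-Usp16 library. There is 1 library per antibody and no replicate, so no test was possible and all values below describe 1 list. The lowest score in the list is 50, so a gene without a listed peak is not shown to lack Usp16. Read depth is unknown, and the IgG signal was not analysed here, so the scores are given without a background level. The labelled cell type could not be checked against marker genes, since a peak list holds no expression values.

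Protein synthesis begins when Eif2 carries the initiator tRNA to the small ribosomal subunit. Eif3 holds that complex together, the Eif4 factors bring in the capped mRNA, and Eif1 and Eif5 govern the choice of the start codon. Eif2b recharges Eif2 with GTP, and kinases that phosphorylate Eif2 block this step under stress. During elongation Eef1 delivers aminoacyl-tRNAs to the ribosome and Eef2 moves the ribosome along the mRNA. Blood stem cells are known for a low rate of protein synthesis compared with their progeny.

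Of the 72 genes, 32 carried a gene-end peak, meaning a peak that overlapped the window of 1 kb on either side of an annotated end of the gene. This was 44.4% of them, where the share over all protein-coding genes was 13.9% (3033 of 21887). The remaining 40 genes had none. Counting only peaks that scored no lower than the list median, it was 20 of 72 (27.8%, beside 7.99% of all protein-coding genes). Without the peaks that also reach another protein-coding gene it was again 20 (27.8%, beside 8.42%). No gene carried more than 1 such peak. The 32 genes were reached by 31 distinct peaks, because Eef1akmt4 and the readthrough gene Eef1akmt4-ece2 begin at the same base.

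**Figure D1:**
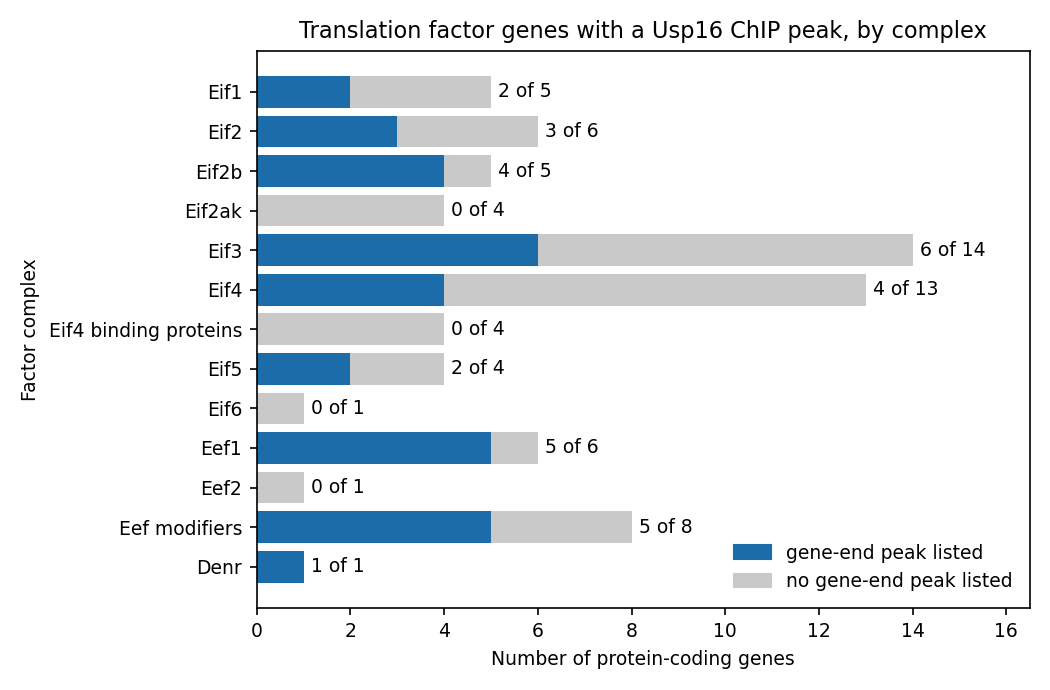
Number of protein-coding genes of each factor complex, grouped by gene symbol, with a gene-end peak (blue) and without one (grey). Eef1 has a peak at 5 of 6 genes and Eif2b at 4 of 5, while the Eif2 kinases (Eif2ak) and the Eif4 binding proteins have none at 4 genes each. The share over all protein-coding genes is 13.9%.

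Peaks were listed at 4 of 5 genes of the exchange factor Eif2b and at 5 of 6 of Eef1. The scaffold Eif3 had 6 of 14, the Eif4 cap and helicase factors 4 of 13, Eif5 2 of 4 and the Eif2 group 3 of 6. The groups follow gene symbols, so Eif5 also holds Eif5a, Eif5a2 and Eif5b, which are separate factors, and Eef1 holds Eef1e1. Over all Eef1 and Eef2 symbols, enzymes that modify these proteins included, 10 of 15 genes had one. None was listed at the 4 kinases of Eif2 or at the 4 proteins that bind Eif4e. The share over all protein-coding genes was 13.9%, and with 4 genes a count of 0 is near it. With so few genes in each complex these counts are a description, and they give no stable order. Without the peaks that also reach another protein-coding gene, 2 of 5 genes were left for Eif2b and 2 of 6 for Eef1, while Eif3 had 6 of 14 in that setting too. With the higher-scoring peaks only, Eif2b had 2 of 5, Eif3 3 of 14 and Eif5 2 of 4.

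Where the strand was known, the peaks lay at gene starts. RefSeq promoter entries, which give the strand and start of transcription, were found for 56 of the 72 genes. Of these, 26 had a peak within 1 kb of a start (46.4%), where the share over all protein-coding genes with an entry was 14.2%. None had one within 1 kb of the opposite end, where the share over all genes was 1.65%. The start itself lay under the peak at 23 of the 26 genes (88.5%). Over all protein-coding genes with a peak within 1 kb of a start it was 89.5%. The sequences upstream of 7 starts are shown to let promoters with a high score (Denr, Eif3f, Eef1b2, Eif2b4), the promoter under the widest peak (Eef1a1) and promoters with no listed peak (Eef2, Eif3a) be compared. Each runs over the 250 bases before the start, 5′ to 3′ on the strand of the gene, from RefSeq GRCm38.p6. Capitals mark matches to the 7 motifs searched, which are named with the promoter results further on.
Denr (chr5:123907025-123907274, + strand): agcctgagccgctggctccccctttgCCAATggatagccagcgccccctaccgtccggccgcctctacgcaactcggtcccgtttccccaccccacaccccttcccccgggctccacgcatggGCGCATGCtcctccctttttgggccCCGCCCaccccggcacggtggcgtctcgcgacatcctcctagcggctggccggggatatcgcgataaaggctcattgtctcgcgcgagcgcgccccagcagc
Eif3f (chr7:108934165-108934414, + strand): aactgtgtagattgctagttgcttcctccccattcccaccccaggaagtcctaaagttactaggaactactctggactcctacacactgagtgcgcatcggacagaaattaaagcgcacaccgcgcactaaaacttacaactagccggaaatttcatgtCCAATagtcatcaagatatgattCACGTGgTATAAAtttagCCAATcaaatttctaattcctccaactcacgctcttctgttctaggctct
Eef1b2 (chr1:63176581-63176830, + strand): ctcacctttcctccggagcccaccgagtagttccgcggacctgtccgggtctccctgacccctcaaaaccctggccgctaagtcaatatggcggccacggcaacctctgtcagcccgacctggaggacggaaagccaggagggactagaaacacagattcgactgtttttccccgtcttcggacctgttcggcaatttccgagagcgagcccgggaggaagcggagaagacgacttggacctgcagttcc
Eif2b4 (chr5:31193140-31193389, - strand): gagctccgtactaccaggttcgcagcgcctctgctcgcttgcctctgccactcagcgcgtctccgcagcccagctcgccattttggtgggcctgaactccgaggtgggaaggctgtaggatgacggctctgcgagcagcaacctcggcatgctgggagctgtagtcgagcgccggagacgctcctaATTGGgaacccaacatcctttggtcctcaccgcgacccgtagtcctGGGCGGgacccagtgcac
Eef1a1 (chr9:78481725-78481974, - strand): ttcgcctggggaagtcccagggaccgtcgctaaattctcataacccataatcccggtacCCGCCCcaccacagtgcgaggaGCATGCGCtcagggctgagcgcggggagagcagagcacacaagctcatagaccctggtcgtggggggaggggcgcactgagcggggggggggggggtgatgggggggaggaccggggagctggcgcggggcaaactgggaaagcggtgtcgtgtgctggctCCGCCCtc
Eef2 (chr10:81176381-81176630, + strand): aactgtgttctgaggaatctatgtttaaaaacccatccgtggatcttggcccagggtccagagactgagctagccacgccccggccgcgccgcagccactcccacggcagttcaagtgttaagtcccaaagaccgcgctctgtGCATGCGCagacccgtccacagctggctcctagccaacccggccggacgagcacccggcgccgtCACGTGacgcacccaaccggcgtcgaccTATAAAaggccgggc
Eif3a (chr19:60790694-60790943, - strand): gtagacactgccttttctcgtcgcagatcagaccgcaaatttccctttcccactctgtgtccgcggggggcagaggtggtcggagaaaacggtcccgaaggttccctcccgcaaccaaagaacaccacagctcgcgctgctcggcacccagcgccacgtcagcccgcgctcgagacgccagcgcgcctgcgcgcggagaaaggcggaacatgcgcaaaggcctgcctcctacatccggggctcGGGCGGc

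Denr binds Mcts1 and works in ribosome recycling and in re-initiation after short upstream reading frames. Its peak had the highest score of the factor genes, 505, on chromosome 5 from 123906767 to 123907490. It ranked 27 among all 5079 peaks and 2 among the 2466 peaks at protein-coding gene ends. Its width of 724 bp was close to the median of 788.5 bp for those peaks. It reached from 508 bp before the listed start to 215 bp after it, and so covered the whole printed sequence. Eif2d, which carries related domains and has a similar recycling role in a single protein, had no gene-end peak, and its nearest peak midpoint was 37.0 kb away.

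The scores of the other factor genes were spread from 54.0 to 232. With Denr included the median was 82.6 (quartiles 66.4 and 114), where the median over all protein-coding genes with a gene-end peak was 75.6 (quartiles 60.1 and 108). A score above 100 was found for 11 of the 31 distinct peaks (35.5%), where it was found for 28.3% of all peaks at protein-coding gene ends. Scores were thus mixed within this group, and 12 of the 31 were under 70. Over all peaks at protein-coding gene ends they were mixed too, with quartiles of 59.9 and 106. The share under 70 was not computed for those peaks.

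**Figure D2:**
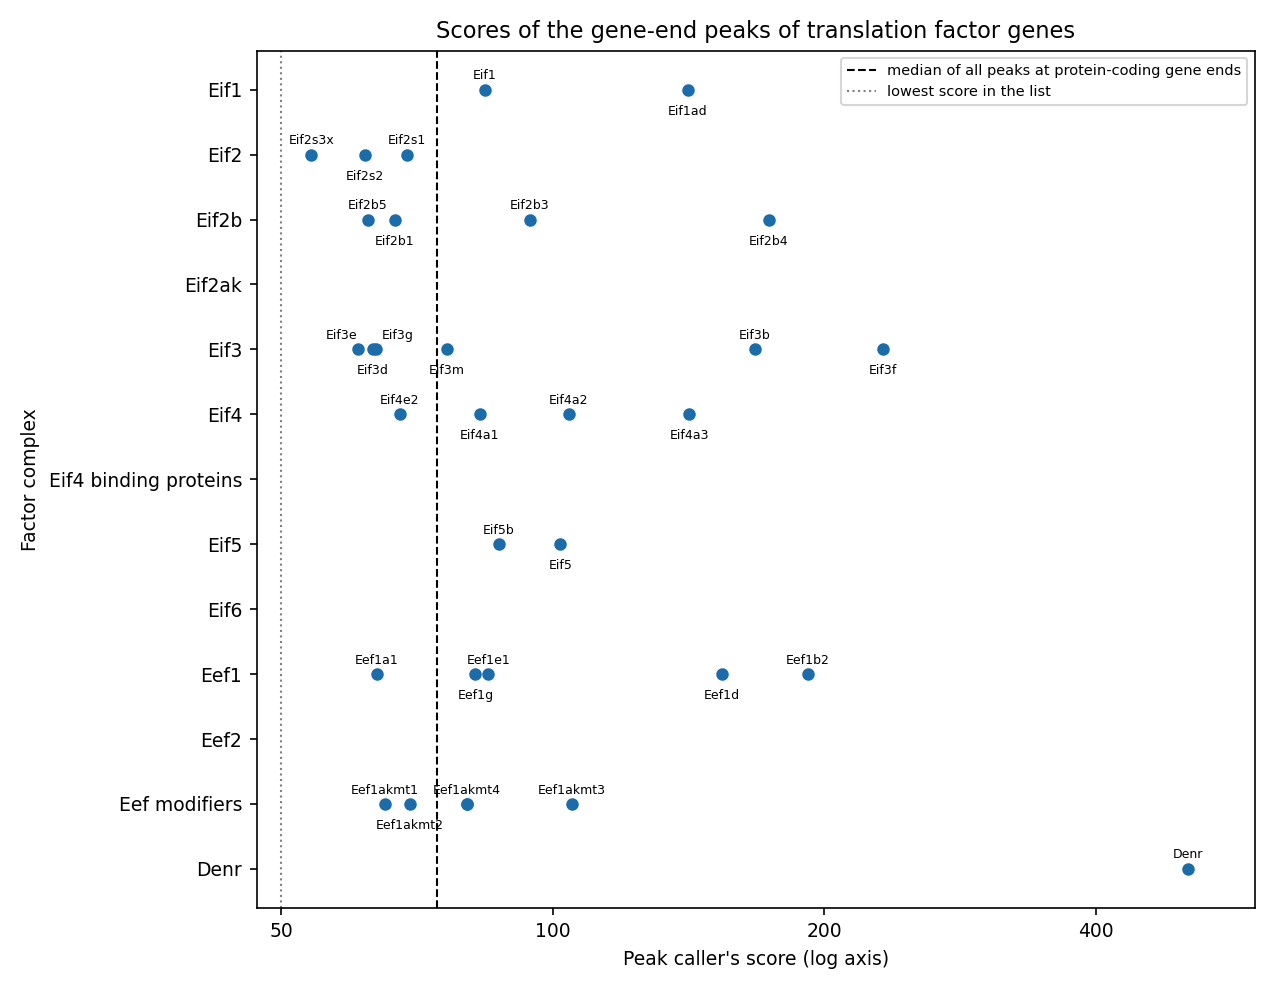
Peak caller's score (log axis) of each gene-end peak, by factor complex. The dashed line is the median of 74.4 over all peaks at protein-coding gene ends and the dotted line the lowest listed score of 50. Denr stands alone at 505, and the 3 Eif2 genes lie to the left of the dashed line.

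Eif1 scans for the start codon with its partner Eif1a. Eif1 had a peak of score 84.1 and width 1253 bp (chromosome 11, 100319478 to 100320730). Eif1ad, which encodes a protein with an Eif1a-like domain, had one of score 141 and width 940 bp (chromosome 19, 5366416 to 5367355). The genes Eif1a, Eif1ax and Eif1b had none, with the nearest peak midpoints 110, 759 and 382 kb away.

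Eif2 is a trimer of an alpha, a beta and a gamma subunit, and each of the 3 had a gene with a peak. The alpha subunit gene Eif2s1, whose product is the target of the stress kinases, scored 69.0 (chromosome 12, 78861037 to 78862325). The beta subunit gene Eif2s2 scored 61.9 (chromosome 2, 154892376 to 154893198). The gamma subunit is encoded on both sex chromosomes. The copy on X, Eif2s3x, scored 54.0, the lowest of all factor genes (chromosome X, 94212679 to 94213145), and its Y copy Eif2s3y had no peak. All 3 scores were under the median of the whole list, 70.1. On chromosome X, 3.73% of protein-coding genes had a gene-end peak. The X and Y copies are similar in sequence, and how reads were assigned between them was not tested. Eif2a and Eif2d, which can bind initiator tRNA outside the trimer, had none.

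Eif2b is the exchange factor that returns Eif2 to its GTP-bound form, and 4 of its 5 subunit genes had a peak. Eif2b4 had the strongest, of score 174 and width 751 bp (chromosome 5, 31192808 to 31193558), with the midpoint 44 bp before the start. Eif2b3 followed with 94.4 and a narrow peak of 507 bp (chromosome 4, 117019096 to 117019602). Eif2b1 scored 66.8 (chromosome 5, 124578810 to 124579401) and Eif2b5 62.4 (chromosome 16, 20498569 to 20499140). The median width of these 4 peaks was 582 bp, with Eif2b4 the widest, and all had midpoints close to an end of the gene: 25.5 bp for Eif2b1, 50 bp for Eif2b3, 44 bp for Eif2b4 and 59.5 bp for Eif2b5. The beta subunit gene Eif2b2 was the exception, with its nearest peak midpoint 223 kb away.

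None of the 4 Eif2 kinase genes had a peak in or near it, where 13.9% of all protein-coding genes had a gene-end peak. Eif2ak1 encodes the haem-regulated kinase, Eif2ak2 the kinase activated by double-stranded RNA, Eif2ak3 the kinase of the endoplasmic reticulum and Eif2ak4 the kinase that senses uncharged tRNA. Their nearest peak midpoints were 112, 54.5, 536 and 57.9 kb from an end of the gene.

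Eif3 is the largest initiation factor, and 6 of its 14 genes had a peak. Eif3f, which encodes a subunit with an MPN domain, scored 232 and ranked 150 in the whole list (chromosome 7, 108933891 to 108934614). Eif3b, which encodes a scaffold subunit with an RNA recognition motif, scored 167 with a peak of 1377 bp (chromosome 5, 140418008 to 140419384). The other 4 scored much less. Eif3m had 76.4 (chromosome 2, 105016707 to 105017406) and Eif3g, an RNA-binding subunit, 63.8 (chromosome 9, 20898366 to 20898970). Eif3d, which can bind the cap of certain mRNAs, had 63.2 (chromosome 15, 77970478 to 77971560), and Eif3e had 60.9 (chromosome 15, 43282410 to 43282988).

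A gene-end peak was listed at 13.9% of all protein-coding genes, and the groups below were chosen after the values were seen. Within Eif3, the octamer formed by subunits a, c, e, f, h, k, l and m had peaks at 3 of 8 genes. Of the b, g and i subunits 2 of 3 had one, and the d subunit had one. The loosely bound j subunit is encoded by Eif3j1 and Eif3j2, and neither had a peak. Eif3a, the largest subunit, was the farthest of these from any peak, at 1070 kb. Peaks nearest to an end of Eif3c, Eif3h and Eif3l lay 17.1, 12.1 and 12.1 kb away, and those nearest to Eif3i, Eif3j1, Eif3j2 and Eif3k between 26.2 and 146 kb.

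Among the Eif4 factors 3 of the 4 peaks were at Eif4a genes and 1 at an Eif4e gene. Eif4a genes encode DEAD box helicases, and 3 of 4 had a peak, where 13.9% of all protein-coding genes had one. The groups within Eif4 were chosen after the values were seen. Eif4a3, whose product is a part of the exon junction complex, scored 142 (chromosome 11, 119299793 to 119300529). Eif4a2 scored 104 (chromosome 16, 23106986 to 23108745) and Eif4a1 83.0 (chromosome 11, 69670711 to 69672865). Without peaks at the ends of small RNA genes only Eif4a3 was left of the 3, since those of Eif4a1 and Eif4a2 came within 1 kb of snoRNA genes. The gene without a listed peak was Eif4a3l1, an Eif4a3-like gene. Of the 4 cap-binding Eif4e genes only Eif4e2, which encodes a cap-binding repressor, had a peak, with a score of 67.7 (chromosome 1, 87213602 to 87214074). Eif4e itself had its nearest peak midpoint 328 kb away, and Eif4e1b and Eif4e3 at 33.1 and 98.6 kb.

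The Eif4g scaffold genes had no peak at any of the 3 members, and the helicase cofactor genes Eif4b and Eif4h had none either. With so few genes a count of 0 is near the share over all protein-coding genes, 13.9%. Nearest midpoints were 62.0 kb from Eif4g1, 39.6 kb from Eif4g2 and 60.6 kb from Eif4g3. Eif4ebp1, Eif4ebp2 and Eif4ebp3, which encode the mTOR-regulated repressors of Eif4e, and Eif4enif1, which encodes its nuclear transporter, also had none.

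Eif5 and Eif5b act at the end of initiation. Eif5, the GTPase-activating factor of Eif2, scored 102 (chromosome 12, 111537582 to 111538276), and Eif5b, the GTPase that joins the subunits, 87.2 (chromosome 1, 37996968 to 37998359). Eif5a and Eif5a2 encode the hypusine-bearing factors that help form difficult peptide bonds, and neither had a gene-end peak. Eif6, which keeps the large subunit from joining too early, had its nearest peak midpoint 127 kb away.

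Of the Eef1 group, which holds Eef1e1 by its symbol, only Eef1a2 had no peak, and its nearest lay 396 kb away. Eef1a2 is the form of the tRNA carrier found mainly in muscle and nerve, and Eef1a1 the form found in most other tissues. The exchange factor subunit gene Eef1b2 scored 192 with a peak of 1274 bp (chromosome 1, 63176254 to 63177527). The second exchange subunit gene, Eef1d, scored 154 (chromosome 15, 75909012 to 75909777). Eef1g, which encodes the subunit that anchors the exchange factors, scored 82.1 (chromosome 19, 8966525 to 8967789). Eef1e1, whose product is part of the complex of aminoacyl-tRNA synthetases, scored 84.9 (chromosome 13, 38658276 to 38659075). Eef1a1 itself scored 63.9 (chromosome 9, 78479893 to 78482589).

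Eef2, the translocase, had no gene-end peak, and its nearest was 39.2 kb away. Its kinase Eef2k and its methyltransferase Eef2kmt had none. Of the 6 genes for enzymes that methylate Eef1a, 5 had a gene-end peak and Eef1aknmt had none. The share over all protein-coding genes was 13.9%. The 5 genes had only 4 distinct peaks. Without those that also reach another protein-coding gene, Eef1akmt1 and Eef1akmt2 were left (2 of 6, beside 8.42% of all). Eef1akmt3 scored 105 (chromosome 10, 127041425 to 127042317), Eef1akmt2 69.4 (chromosome 7, 132852129 to 132852959) and Eef1akmt1 65.2 (chromosome 14, 57571129 to 57572000). Eef1akmt4 and its readthrough gene had 1 peak in common, of score 80.4 (chromosome 16, 20610460 to 20611070), which covered the start of the neighbouring gene Alg3 and not their own.

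Around the starts, the peaks formed a narrow band with a few exceptions. At the 26 genes with a listed start the median distance between the peak's midpoint and the start was 158.75 bp, where it was 154 bp over 2529 protein-coding genes with a gene-end peak and a listed start. It was at most 200 bp for 61.5% of the factor genes and for 58.7% of all those genes. In both measures the factor genes were close to the rest of the list. The midpoint lay upstream of the start at 15 of the 26 factor genes and downstream at 11, where it lay upstream at 61.5% of all those genes. The peaks reached a median of 484 bp upstream and 322 bp downstream. This reach was not computed over all genes.

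**Figure D3:**
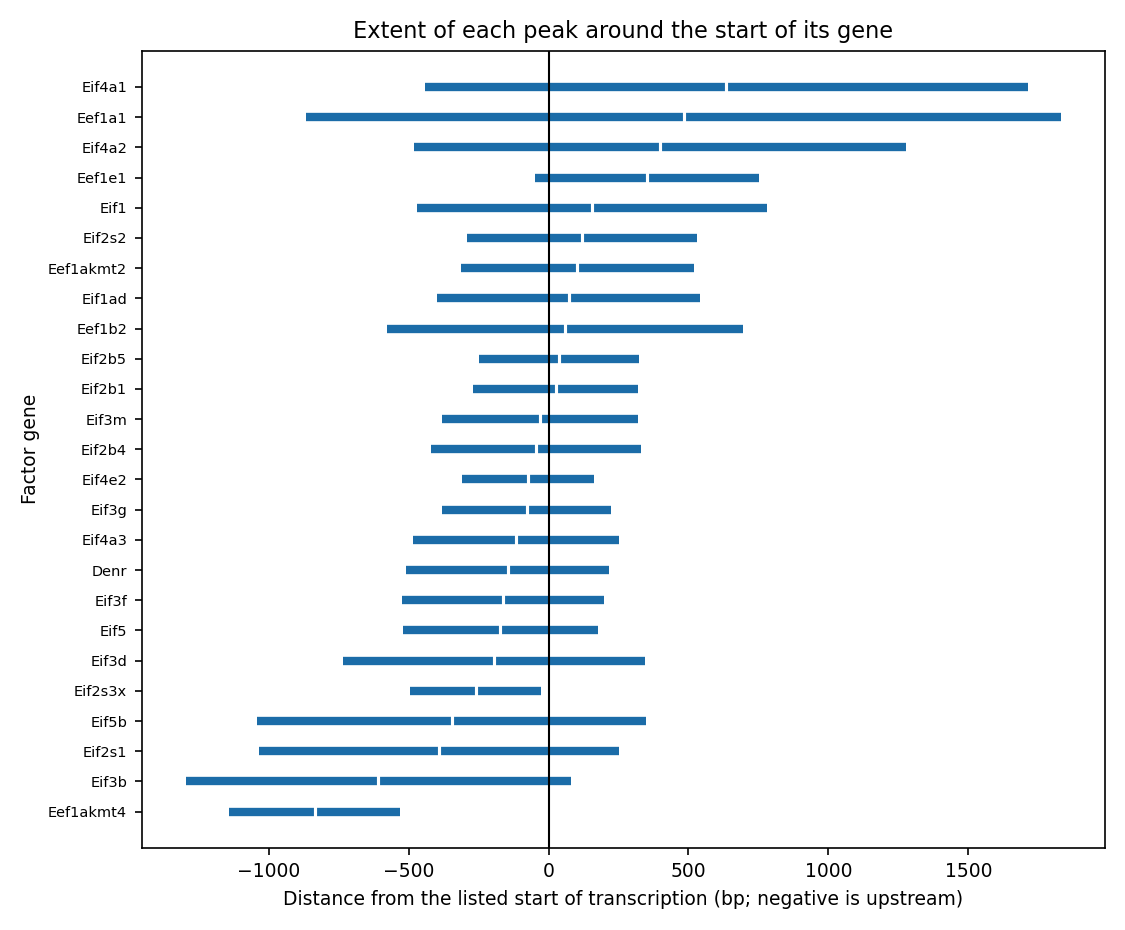
Extent of each peak (bar) and its midpoint (white tick) relative to the listed start of transcription at 0, in bp with upstream negative, for the 25 distinct starts with a peak. Most bars cross 0, the peaks of Eef1akmt4 and Eif2s3x end before it, and those of Eef1a1, Eif4a1 and Eif4a2 run more than 1000 bp past it.

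The exceptions lay on both sides. The peak of Eef1akmt4 ended 531 bp before the start, with its midpoint 836 bp upstream, the farthest of any factor gene. The peak of Eif2s3x ended 28 bp before the start. Eif3b had a peak that reached 1297 bp upstream and only 79 bp into the gene. In the opposite direction, Eef1e1 had a peak that began 47 bp before the start and reached 752 bp into the gene. For the 6 genes with a peak and no promoter entry the strand was not used. At 5 of these an annotated end lay under the peak. The peak of Eef1d lay inside the gene with its midpoint 389.5 bp from the end. It covered an end of the neighbouring gene Tigd5, 340.5 bp from the midpoint.

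The peak just inside the window of 1 kb was that of Eef1akmt4, and just outside it were Eif5a and Eif4ebp3. Their nearest peak midpoints lay 2.66 and 4.001 kb from the gene, with scores of 52.9 and 69.5. At all 40 genes without a gene-end peak the median distance to the nearest peak midpoint was 64.7 kb, and 17 of these genes had it more than 100 kb away. The same distances were not computed for all protein-coding genes without a peak, so they do not set the factor genes apart.

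Peak widths ran from 467 bp at Eif2s3x to 2697 bp at Eef1a1, with a median of 783 bp over the 32 genes (quartiles 611 and 1256), where the median over all protein-coding genes with a gene-end peak was 801 bp. Of the 31 distinct peaks 10 were 1000 bp or wider (32.3%), where 26.1% of all peaks at protein-coding gene ends were. The 3 widest belonged to Eef1a1, Eif4a1 with 2155 bp and Eif4a2 with 1760 bp. All 3 covered the start and ran on into the gene, by 1831, 1712 and 1277 bp. At Eef1a1, which is only 3.27 kb long, 56.0% of the gene lay under the peak, and at Eif4a1 and Eif4a2 it was 31.2% and 19.2%. Such a share was not particular to the widest peaks, since it was 36.4% at the short gene Eif1 and 19.1% at Eef1b2. The peaks of Eif4a1 and Eif4a2 also came within 1 kb of snoRNA genes, LOC115487892 and Snord2. Neither small RNA gene lay under the peak. LOC115487892 ends at 69669778, and the Eif4a1 peak begins at 69670711. Snord2 begins at 23108953, and the Eif4a2 peak ends at 23108745. Whether signal from these genes adds to the width was not tested.

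The widest peaks were not the highest-scoring ones. Eef1a1 was at the 99.7th percentile of width and the 32.9th of score among all peaks at protein-coding gene ends. Denr, which ranked 2 by score among them, was at the 40.9th percentile of width. Across the 31 distinct peaks Spearman's rho between score and width was 0.26, and across all 2466 it was 0.12. The peaks share 1 library, so these are descriptions. Eef1a1 is known to have many processed copies in the genome, and how reads were assigned between them was not tested.

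**Figure D4:**
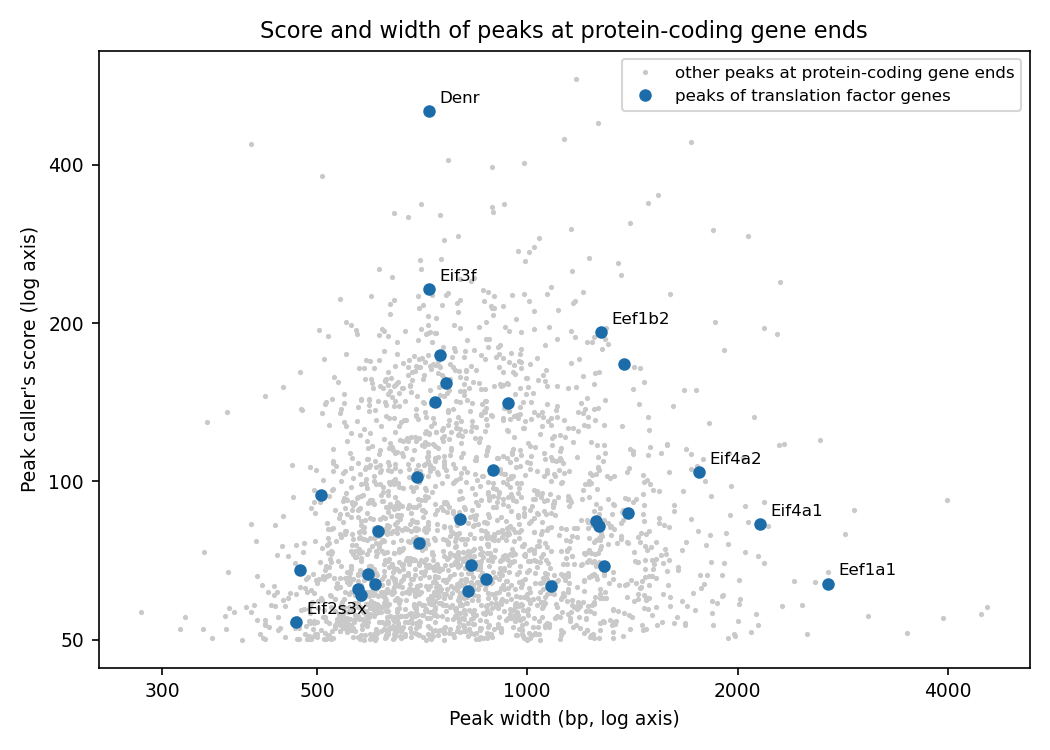
Score against width in bp (both log axes) of the 2466 peaks at protein-coding gene ends, with the 31 peaks of factor genes in blue. Denr lies at the top with a common width of 724 bp, and Eef1a1, Eif4a1 and Eif4a2 lie at the right with scores from 63.9 to 104.

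Several factor genes had their peak in common with a neighbour. Of the 31 distinct peaks 11 (35.5%) also reached the end of another protein-coding gene, where 24.9% of all peaks at protein-coding gene ends did. Opposite strands and starts less than 1 kb apart were found for 7 factor genes, counting Eef1akmt4 and its readthrough gene. Only neighbours reached by the peak were looked at. The share of such pairs over all protein-coding genes was not computed, so this count has no comparison. Eif2b1 and Gtf2h3, which encodes a subunit of the general transcription factor TFIIH, start 17 bp apart. For Eif1ad and Banf1, which encodes a chromatin-binding protein of the nuclear envelope, the distance was 63 bp. Eif2b4 and the sorting nexin gene Snx17 start 165 bp apart, so the Eif2b4 sequence printed above also holds the start of Snx17.

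Wider gaps separated the starts of Eif2s1 and the proton pump gene Atp6v1d (434 bp) and those of Eif5b and Txndc9 (802 bp). Eef1akmt4 and Alg3, a gene of protein glycosylation, start 840 bp apart. In this pair the peak's midpoint lay 4 bp from the start side of Alg3 and 836 bp from that of Eef1akmt4, so the peak covered the start of Alg3 only. The Eef1b2 peak had its midpoint 59.5 bp from Eef1b2 and 68.5 bp from Ndufs1, a gene of respiratory complex I. Peaks of Eef1akmt3, Eef1d, Eef1g and Eif4a1 also reached ends of Mettl1, Tigd5, Tut1 and Senp3. At 5 factor genes the midpoint lay nearer to the neighbour: Eef1akmt4, its readthrough gene, Eef1d, Eif1ad and Eif2s1. It lay 340.5 bp from Tigd5 and 389.5 bp from Eef1d. For Banf1 and Eif1ad it was 9.5 and 72.5 bp, and for Atp6v1d and Eif2s1 327 and 391 bp. A peak between such genes cannot be given to either of them from these data. None of the 6 Eif3 peaks reached another protein-coding gene.

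Promoters of factor genes were rich in CpG whether or not a peak was listed. Over the 300 bases from 250 before to 50 after the start, the 26 factor promoters with a peak held a median of 23.5 CpG (quartiles 18.5 and 27.75). The 30 without one held 22.5 (quartiles 17 and 34). Over all protein-coding genes the medians were 21 for 2529 genes with a peak and 10 for 14963 without. The share of G and C had a median of 60% with a peak and 63% without among factor genes, and 60% and 55.3% among all genes. Eef2 and Eif3a, with 34 and 35 CpG and no peak, had more than Denr with 31, Eef1b2 with 27, Eif2b4 with 25, Eef1a1 with 22 and Eif3f with 12.

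**Figure D5:**
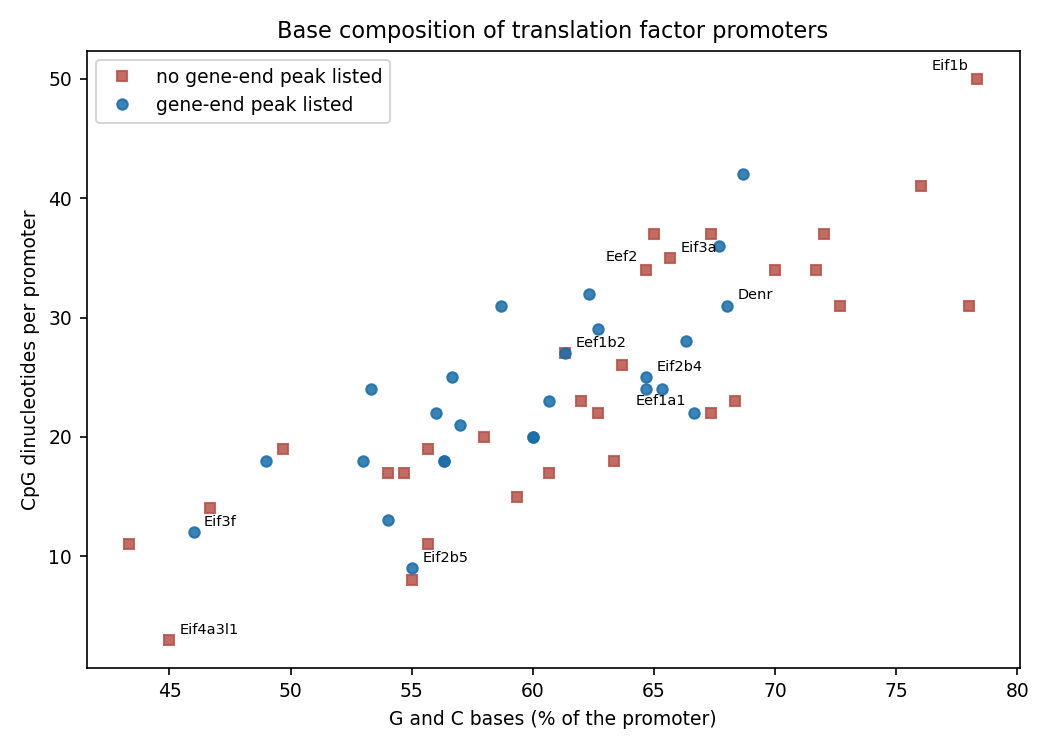
CpG dinucleotides per 300-base promoter against the percentage of G and C bases for the 56 factor genes with a promoter entry. Promoters with a peak (circles) and without one (squares) overlap over most of the range, and the highest CpG count, 50, is that of Eif1b, which has no peak.

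The 7 motifs were searched on both strands of the same 300 bases, and none of them contains another. Eef1akmt4 and its readthrough gene have the same promoter and were each counted. The Sp1 box GGGCGG was in 73.1% of factor promoters with a peak and 73.3% without, where it was in 61.9% of all protein-coding promoters with a peak and 43.7% without (46.3% of all). The ETS core CCGGAAG was in 26.9% and 26.7%, where it was in 24.9% of all protein-coding promoters with a peak and 9.72% without (11.9% of all). CCAAT was in 38.5% and 30.0% (38.9% and 39.2% over all genes, 39.2% pooled), and TATAAA in 11.5% and 6.67% (7.28% and 14.4% over all genes, 13.3% pooled). For the Sp1 box and the ETS core the shares of factor promoters were nearly equal with and without a peak.

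The E-box CACGTG was in 4 of 26 factor promoters with a peak (15.4%) and 9 of 30 without (30.0%), where it was in 11.4% of all promoters with a peak and 7.32% without (7.91% pooled). The NRF1 core GCGCATGC was in 3 of each (11.5% and 10%, beside 5.81% and 3.23% over all genes, 3.61% pooled), and the YY1 string AAGATGGC in 4 and 1 (15.4% and 3.33%, beside 6.37% and 2.67% over all genes, 3.21% pooled). In the printed sequences, Denr had a CCAAT box beginning 224 bases, an NRF1 core 127 bases and a Sp1 box 102 bases before the start. Eif3f had a different set, with CCAAT boxes at 91 and 50, an E-box at 68 and TATAAA at 61 bases before the start. Eef1b2 held no match in its 250 upstream bases. Eef2, with no listed peak, held an NRF1 core at 107, an E-box at 43 and TATAAA at 15. A match is a string of letters, not a site.

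Gene lengths of factor genes with and without a peak overlapped. Factor genes with a peak were from 2.15 to 67.5 kb long with a median of 11.8 kb, and those without were from 2.27 to 215 kb with a median of 19.3 kb. Over all protein-coding genes the medians were 18.1 kb with a peak and 17.0 kb without.

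Beyond the named factors, 45 further genes of translation and its control were followed, and 16 of them had a gene-end peak (35.6%, beside 13.9% of all protein-coding genes). Their median score was 81.2. The 45 genes were listed by hand and not by a rule. With starts only the count was 10 of 37 (27%, beside 14.2% of all protein-coding genes). With the higher-scoring peaks it was 10 of 45 (22.2%, beside 7.99%). A peak at the end opposite the start was found for 3 of 37 (8.11%, beside 1.65%). Of the genes for factors of mitochondrial translation in this list, Tsfm, the exchange factor of the mitochondrial tRNA carrier, scored 168, Gfm2 154, Tufm, the carrier itself, 129 and Mtif3 77.6. Others of that kind had no gene-end peak: Gfm1, Mrrf, Mtif2, Mtrf1 and Mtrf1l. Mcts2, a retrogene of the Denr partner Mcts1, scored 152, while Mcts1 on chromosome X had none. Dph1, which helps make the diphthamide residue of Eef2, scored 125 and the initiation helicase gene Dhx29 scored 119.

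In the stress response branch, the phosphatase subunit genes Ppp1r15a and Ppp1r15b, whose products reverse the phosphorylation of Eif2s1, had peaks of score 67.2 and 51.0, and the Ppp1r15a peak lay at the end opposite its start. Atf4, the transcription factor translated when Eif2 is phosphorylated, had one of 59.9. Of the mTOR pathway genes, Rptor scored 84.7 and Mtor 97.6, and the Mtor peak lay beyond the end opposite its start. Larp1, Rps6kb1, Mknk1 and Mknk2 had none. Among termination factors Gspt1 scored 75.4, and Etf1, Gspt2 and Abce1 had none. The poly(A) tail binding gene Pabpc1 scored 63.5, Paip2 56.9 and Naca 52.8.

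For aminoacyl-tRNA synthetases, the enzymes that load tRNAs, 18 of 38 genes had a gene-end peak (47.4%), with a median score of 65.6 and a median width of 759 bp. For the proteins of the cytosolic ribosome it was 53 of 85 genes (62.4%), with 72.9 and 970 bp. The factor genes, with 44.4%, 82.6 and 783 bp, had a share next to that of the synthetases, a median width nearer to theirs than to that of the ribosomal proteins, and the highest median score of these 3 groups. These differences were not tested. The quartiles of the scores overlapped: 66.4 to 114 for factor genes, 54.5 to 98.5 for synthetases and 59.4 to 104 for ribosomal proteins.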

How the data were processed

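Per the file headers, the authors called peaks with MACS run in Galaxy, and each deposited peak carries a score from that caller, whose scale the headers do not state. Per the submitters' processing notes, Bowtie, Picard and the build mm10 were used. For the MACS settings and the use of IgG, the sources used here give nothing. The other deposited values are the peak start and end, and starts were converted to 1-based positions.

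Genes came from RefSeq GRCm38.p6, the assembly that mm10 names, and starts and strands from its promoter table. A gene with several listed starts was tested at each, and its most upstream promoter was used for motifs. A peak counted for a gene when it overlapped, by 1 bp or more, a window of 1 kb on either side of an end. The highest-scoring such peak stood for the gene. The overlap search was tested on simulated data. Every factor gene with a peak is named. The members and lists were chosen with earlier results of these data known. The 7 printed sequences and the groups within Eif3 and Eif4 were chosen after the values were seen. Calculations used Python 3.11.15, pandas 2.3.3 and scipy 1.17.1. Ribosomal protein genes were those named Rpl or Rps with a number, Rplp or Rpsa, without kinases, and synthetases those named by a letter and ars, with Eprs. Alternatives were other windows, other overlap rules, the higher-scoring peaks, starts only, and removal of shared peaks, of peaks at small RNA genes and of modifying enzymes.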

Additional observations from a re-analysis of the deposited data

How the results depend on the processing

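Over 89 recalculated values, 78 stayed within the 95% binomial interval of the reported value, or within 1.5 times a count, and 11 did not. The interval treats genes of 1 list as independent draws, which they are not. It serves here only as a yardstick for the size of a change. With only peaks at or above the median score the share of factor genes with a peak was 27.8% (7.99% of all protein-coding genes), with 0 genes for Eif2, 2 for Eif2b and 3 for Eif3. Without peaks that also reach another protein-coding gene it was 27.8% too (8.42% of all), with 4 genes for Eef1 and Eef2 symbols, 2 for Eif2b and 1 for Eif5. With starts only, the Eef count was 6 of the 11 genes with a promoter entry, and with modifying enzymes left out it was 5 of 7; both have fewer genes by construction. Without peaks at the ends of small RNA genes (tRNA, snRNA, snoRNA) the Eif4 count was 2, since the peaks of Eif4a1 and Eif4a2 dropped out. A window of 500 bp gave 41.7% (13% of all) and one of 5 kb 47.2% (18.3% of all). Leaving out Denr, or counting the Eef1akmt4 start once, were alternatives chosen after seeing the data, and gave a median score of 82.1 and a share of 43.7%. Depth is unknown and limits what a missing peak can show. No paired analysis was possible because there is 1 library per antibody and the results come from no test.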

Other observations

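A few factor genes without a gene-end peak had one nearby or inside. Eif3h, an MPN domain subunit of Eif3, held a peak of score 63.5 inside the gene at 12.2 kb from an end (chromosome 15, 51798532 to 51799084), at no annotated gene end. Eif4b had a peak of 63.9 that lay 7.92 kb before its start and at no annotated gene end either (chromosome 15, 102065534 to 102066176). The peak 6.95 kb before Eef2k scored 103 and lay at the tRNA gene n-TLtag1 (chromosome 7, 120835194 to 120836198). The peaks next to Eif5a and Eif4ebp3 lay at ends of other protein-coding genes, Gps2 and Neurl4 for Eif5a and Apbb3 and Sra1 for Eif4ebp3.

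On chromosome 16, Eif2b5 and Eef1akmt4 had peaks and are 102 kb apart, and Eif4g1, 53.9 kb beyond Eef1akmt4, had none. On chromosome 11, Eif4a1 with its wide peak lies 244 kb from Eif5a, which had none.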
